A study of Homo sapiens with 14 samples.

Results

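Expression of 8 genes that carry out or trigger regulated cell death was described in U251MG, an established human glioblastoma cell line. Radioresistant cells were set against control cells and, within radioresistant cells, IFI16 knockdown against the hairpin shNC. The genes were chosen by name, 8 of the 24461 genes listed in each expression table: TNFSF10, CASP8, RIPK1, RIPK3, MLKL, CASP1, CASP4 and GSDMD. The choice was made with earlier results of these data known. Counts of these genes set beside shares of all genes are therefore description only. All 8 were found in both tables. RIPK3 was too low to be tested in either table, so 7 of 8 were tested in each comparison.

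RNA-seq was made of 3 libraries of control cells, 3 of radioresistant cells, 3 of radioresistant cells with the hairpin shNC and 3 of radioresistant cells with the hairpin shIFI16; ATAC-seq was made of 1 control and 1 radioresistant library. The labels give all groups as WT U251MG. Radioresistant cells had received 30 fractions of 2 Gy of X-rays, 60 Gy in all, and both hairpin groups were labelled as made from such cells. Nothing in the labels says how many irradiated populations or clones there were, how long after the last fraction the cells were taken, or that the control cells were mock-irradiated; 1 hairpin name against IFI16 is given and no rescue. Whether replicates were grown as separate cultures is also not stated, and p-values then cover only library-to-library spread, possibly technical.

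TNFSF10 encodes TRAIL, a ligand of the tumour necrosis factor family that binds the death receptors encoded by TNFRSF10A and TNFRSF10B. Ligand-bound receptors recruit FADD and caspase-8, the product of CASP8, which starts apoptosis by cleaving executioner caspases and BID. Caspase-8 also cleaves the kinases RIPK1 and RIPK3 and so holds back necroptosis, a lytic death in which RIPK3 phosphorylates MLKL and MLKL breaks the plasma membrane. Pyroptosis, another lytic death, runs through the inflammatory caspases: caspase-1 is activated by inflammasomes, caspase-4 by bacterial lipopolysaccharide in the cytosol, and both cleave gasdermin D, the product of GSDMD, into a pore-forming fragment. The caspases, the kinases, MLKL and gasdermin D are made inactive and are switched on by cleavage, phosphorylation or assembly. RNA levels do not measure these steps, nor the amount of TRAIL protein. Genes of this set known to be induced by interferons in many cell types include TNFSF10, CASP1, CASP4 and MLKL. IFI16 is a nuclear and cytosolic DNA sensor that is itself induced by interferon.

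On GRCh38.p14 the genes other than GSDMD lie at chr3:172505508-172523430 (TNFSF10), chr2:201233463-201287711 (CASP8), chr6:3063967-3115187 (RIPK1), chr14:24336025-24339991 (RIPK3), chr16:74671855-74700862 (MLKL), chr11:105025443-105036686 (CASP1) and chr11:104942866-104968574 (CASP4). CASP4, CASP5, CASP1 and CARD16 follow one another on chromosome 11. A RefSeq promoter entry of the same build was matched for 5 of the 8 genes. The stretches shown are the 250 bases before the start of the 3 genes with an entry that were higher in radioresistant cells and lower after knockdown, and the 30 bases around the CASP8 start. Capitals mark a match to the core of the interferon-stimulated response element on either strand, the sequence bound by interferon regulatory factors.
TNFSF10, chr3:172523431-172523680, minus strand: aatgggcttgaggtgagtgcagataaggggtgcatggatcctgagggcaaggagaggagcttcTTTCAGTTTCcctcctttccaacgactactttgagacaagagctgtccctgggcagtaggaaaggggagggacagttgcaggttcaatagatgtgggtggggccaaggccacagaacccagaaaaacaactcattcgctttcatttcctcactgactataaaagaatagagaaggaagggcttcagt
MLKL, chr16:74700863-74701112, minus strand: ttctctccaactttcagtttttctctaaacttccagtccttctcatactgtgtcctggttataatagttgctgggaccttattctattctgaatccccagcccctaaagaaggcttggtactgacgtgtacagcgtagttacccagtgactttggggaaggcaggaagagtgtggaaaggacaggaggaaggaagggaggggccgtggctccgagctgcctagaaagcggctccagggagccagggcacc
CASP4, chr11:104968575-104968824, minus strand: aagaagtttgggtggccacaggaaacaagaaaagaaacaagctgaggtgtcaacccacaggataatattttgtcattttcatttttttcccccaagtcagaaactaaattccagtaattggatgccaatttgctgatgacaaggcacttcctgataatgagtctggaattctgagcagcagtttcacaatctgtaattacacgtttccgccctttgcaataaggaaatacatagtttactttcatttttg
CASP8, chr2:201233448-201233477, plus strand: ctgagtttttggTTTCTGTTTCaccttgtg
The TNFSF10 match lay at bases -187 to -178 from the start site and the CASP8 match at -3 to 6, the start being base 0. Of the windows of the 5 matched genes, from 250 bases before to 50 after the start, 2 held this core, against 2.87% of the 9791 promoters of genes tested for expression and 3.65% of all 27305. A gamma-activated site, TTCNNNGAA, was found in 1 of the 5, CASP8 at -200 to -192, against 6.43% of the promoters of tested genes and 7.88% of all. No match says only that these letters are not in the window.

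As a check of the labels, IFI16 stood at 125, 140 and 127 TPM in shNC libraries and at 7.68, 7.90 and 6.71 in shIFI16 libraries (log2 change -3.97, limma adjusted p = 4.4e-14). In the other table it was 70.3, 71.1 and 49.6 TPM in control and 250.8, 309 and 243 in radioresistant libraries. TPM is transcripts per 1000000, a level scaled for gene length within a library; it keeps no sequencing depth, so no counting error can be given. Correlations between libraries of a group were 0.975 to 0.993. Columns of the tables carry codes, and which columns were control and which radioresistant was read from the codes of the ATAC-seq pair; no independent check of that reading was made. The line's own markers also differed between groups. In radioresistant cells 8 of 9 tested glioblastoma line markers fell (S100B through the filter on low values), where 27.0% of all tested genes fell. After knockdown 4 of 8 rose and 2 fell, where 16.6% of all tested genes rose and 16.3% fell. The rise of SOX2, counted among the 4 (log2 change 0.17, limma adjusted p = 0.040), lost its call in 8 of 12 alternative fits. OLIG2 stayed under 0.105 TPM. Of 15 immune cell markers 13 were under 1 TPM in every library and 7 were listed at 0 throughout. PTPRC, the pan-leukocyte marker, reached at most 0.0864 TPM. The summed immune markers, mostly CD68 (log2 change -1.25 after knockdown, limma adjusted p = 5.5e-08), were 16.0 to 21.3 TPM in control, 19.9 to 24.5 in radioresistant, 38.0 to 40.6 in shNC and 14.3 to 18.1 in shIFI16 libraries. Summed endothelial markers were 12.7 to 14.7, 4.87 to 5.14, 6.08 to 6.77 and 11.7 to 14.4 TPM in the same order, and summed epithelial markers 26.5 to 41.3, 30.6 to 42.8, 54.0 to 57.8 and 79.5 to 91.0; their part in the results was not tested.

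Radioresistant cells carried more mRNA of the ligand TRAIL, of the necroptosis executioner MLKL and of both inflammatory caspases than control cells, by 1.82 to 11.6 times, and CASP8, RIPK1 and GSDMD did not pass the test. After IFI16 knockdown in radioresistant cells, 6 of the 7 tested genes fell, CASP1 most. In limma on log2(TPM + 1) with Benjamini-Hochberg adjustment over all genes and a threshold of 0.05, 4 of 7 rose and 0 fell in radioresistant cells, where 16.9% of the 13127 genes tested rose and 27.0% fell, 43.9% called in all. Unadjusted p-values under 0.05 were 5 in the raised and 0 in the lowered direction. After knockdown 0 of 7 rose and 6 fell, where 16.6% of the 12567 genes tested rose and 16.3% fell, 32.9% in all; at unadjusted p under 0.05 the counts were also 0 and 6. The count of 6 was 3 without shNC replicate 1, without shNC replicate 2 or without shIFI16 replicate 2, each of which left CASP1, CASP4 and MLKL. TNFSF10, MLKL, CASP1 and CASP4, 4 of 7, were raised in the first comparison and lowered in the second, as were 4.42% of the 12359 genes tested in both. The median log2 change of the 7 was 0.84 in radioresistant cells and -0.33 after knockdown, beside -0.11 and 0.02 over all tested genes. With quantile normalization the median of all genes in radioresistant cells was -0.02 and with median-ratio scaling 0.01, and the share of calls that were rises went from 38.5% to 47.1% and 50.4%. Relative to that shift of 0.11 the 4 rises kept their direction and their calls.

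**Figure D1:**
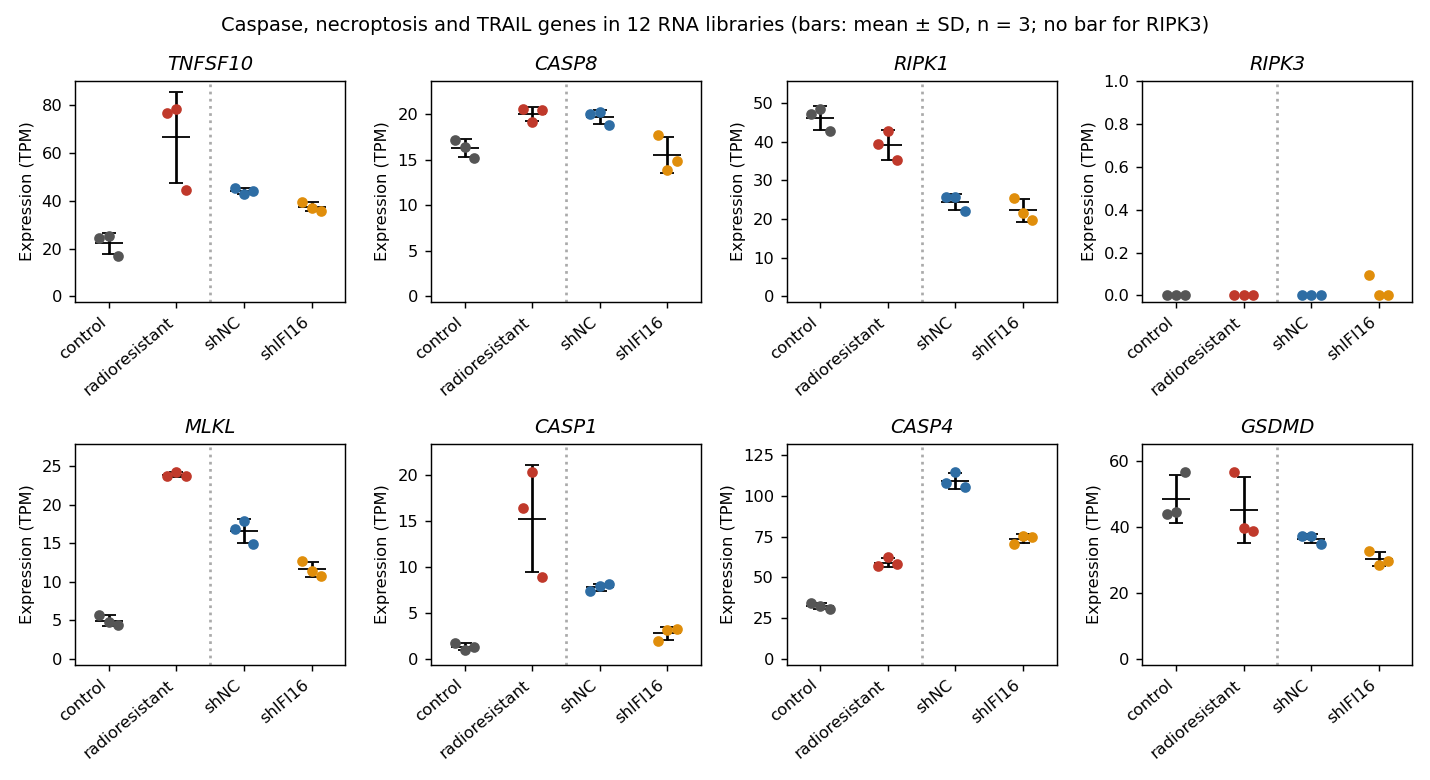
TPM of each of the 8 genes (linear axes from 0, each gene with its own) in the 12 RNA libraries; points are libraries, bars the mean and SD of 3 with none for RIPK3, and the dotted line parts the separately normalized tables. CASP1 ranges from 0.955 TPM in a control library to 20.4 in a radioresistant one, and RIPK3 is listed at 0 in 11 of 12 libraries.

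TNFSF10, the death ligand, was at 24.3, 25.3 and 17.0 TPM in control libraries and at 76.9, 78.4 and 44.4 in radioresistant ones. Every radioresistant library was above every control library, with replicate 3 the lowest of each group. The means were 22.2 ± 4.51 and 66.6 ± 19.2 TPM (SD, n = 3), a ratio of 3.00, and TNFSF10 rose by 1.52 on the log2(TPM + 1) scale (SE 0.226, limma adjusted p = 5.0e-04). With the hairpins it was 45.3, 42.9 and 44.1 TPM in shNC and 39.6, 36.9 and 35.9 in shIFI16 libraries. The groups did not overlap, but the gap was small beside the radioresistant rise. The log2 change after knockdown was -0.23 (SE 0.078, limma adjusted p = 0.032). This call ended without shNC replicate 1 (log2 change -0.21, adjusted p = 0.11), shNC replicate 2 (-0.25, 0.061), shNC replicate 3 (-0.23, 0.091), shIFI16 replicate 2 (-0.22, 0.12) or shIFI16 replicate 3 (-0.20, 0.075).

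CASP8, the initiator caspase of death receptors, was at 17.2, 16.4 and 15.2 TPM in control and 20.6, 19.2 and 20.5 in radioresistant libraries. The groups did not overlap, yet the difference did not pass the test. The log2 change was 0.29 (95% interval 0.02 to 0.55, limma adjusted p = 0.075). It passed with quantile normalization (0.38, adjusted p = 0.016) and with median-ratio scaling (0.41, adjusted p = 0.011). In shNC libraries CASP8 was 20.0, 20.2 and 18.8 TPM and in shIFI16 libraries 17.7, 13.9 and 14.9. All shIFI16 values were below all shNC values, and replicate 1 was the nearest to them. CASP8 fell by 0.33 on the log2 scale (SE 0.103, limma adjusted p = 0.022). The adjusted p was 0.055 with no filter on low genes, 0.056 without shNC replicate 1, 0.078 without shNC replicate 2 and 0.13 without shIFI16 replicate 2 (log2 changes -0.33, -0.32, -0.31 and -0.26).

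RIPK1, the kinase that scaffolds receptor complexes and can start necroptosis, was at 47.3, 48.5 and 42.7 TPM in control and 39.5, 42.8 and 35.2 in radioresistant libraries. Radioresistant replicate 2 was just above control replicate 3, so the groups overlapped. The log2 change was -0.23 (95% interval -0.50 to 0.04, limma adjusted p = 0.14), and without control replicate 3 it was -0.29 (adjusted p = 0.049). With the hairpins RIPK1 was 25.7, 25.7 and 22.0 TPM in shNC and 25.4, 21.6 and 19.7 in shIFI16 libraries. These groups overlapped widely. RIPK1 was the 1 tested gene of the 7 that was not called after knockdown, with a log2 change of -0.13 (95% interval -0.36 to 0.09, limma adjusted p = 0.36). RIPK3, the kinase between RIPK1 and MLKL, was listed at 0 in 11 of 12 libraries and at 0.0946 TPM in shIFI16 replicate 1. A listed 0 can be a failed estimate. Among 175 genes picked by the names of core families (ribosomal, proteasome, RNA polymerase II and similar) 1, PSMA8, was listed at 0 in all libraries. Picking by name does not show that PSMA8 should be expressed in these cells, so its 0 is not known to be a failed estimate. Core genes differ in kind from RIPK3, so this count cannot tell whether its zeros are failed estimates.

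MLKL, which executes necroptosis, was at 5.71, 4.80 and 4.36 TPM in control and 23.7, 24.2 and 23.7 in radioresistant libraries. The radioresistant libraries lay close together and far above all controls. The mean went from 4.96 ± 0.685 to 23.9 ± 0.304 TPM (SD, n = 3), a ratio of 4.82, and the log2 change was 2.07 (SE 0.133, limma adjusted p = 1.2e-06). In shNC libraries MLKL was 16.9, 17.9 and 14.9 TPM and in shIFI16 libraries 12.7, 11.3 and 10.7. The groups did not overlap. MLKL fell by 0.48 on the log2 scale after knockdown (SE 0.105, limma adjusted p = 0.0024). The RNA of the executioner was thus measured in all 12 libraries while that of its activating kinase was at or near 0.

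CASP1, the caspase of inflammasomes, was at 1.69, 0.955 and 1.30 TPM in control and 16.5, 20.4 and 8.92 in radioresistant libraries. Every radioresistant value was several times the highest control value, though replicate 3 was well below the others. The means were 1.32 ± 0.370 and 15.2 ± 5.81 TPM (SD, n = 3), a ratio of 11.6, and CASP1 rose by 2.75 on the log2(TPM + 1) scale (SE 0.258, limma adjusted p = 1.8e-05). With the hairpins it was 7.41, 7.90 and 8.13 TPM in shNC and 1.92, 3.18 and 3.24 in shIFI16 libraries. The groups were far apart, with shIFI16 replicate 1 the lowest. The shNC mean was 2.81 times the shIFI16 mean, and CASP1 fell by 1.24 on the log2 scale (SE 0.144, limma adjusted p = 7.8e-06). CARD16, a neighbouring gene for a caspase-1 inhibitor whose sequence is nearly identical to the start of CASP1, moved likewise, by 1.30 (adjusted p = 5.7e-04) and -1.27 (adjusted p = 3.3e-04); how reads shared by CASP1 and CARD16 were split is not given in the sources used here, so both levels are uncertain.

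CASP4, the sensor of cytosolic lipopolysaccharide, was at 34.2, 32.4 and 30.8 TPM in control and 56.8, 62.4 and 58.1 in radioresistant libraries. Both groups were tight and well apart. The ratio of the means was 1.82 and the log2 change 0.84 (SE 0.111, limma adjusted p = 1.8e-04). In shNC libraries CASP4 was 108, 115 and 105 TPM and in shIFI16 libraries 70.4, 75.5 and 74.8. Again no values overlapped, and CASP4 fell by 0.56 on the log2 scale (SE 0.067, limma adjusted p = 1.0e-05).

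GSDMD (chr8:143553387-143563062 on GRCh38.p14), the pore-forming substrate of both caspases, was at 44.0, 44.7 and 56.8 TPM in control and 56.7, 39.8 and 39.0 in radioresistant libraries. The groups overlapped, each with 1 high library. The log2 change was -0.11 (95% interval -0.48 to 0.25, limma adjusted p = 0.61). Its sign turned with median-ratio scaling (0.01) and without control replicate 3 (0.0047). With the hairpins GSDMD was 37.2, 37.3 and 34.9 TPM in shNC and 32.7, 28.4 and 29.8 in shIFI16 libraries. These groups did not overlap, and GSDMD fell by 0.26 (SE 0.085, limma adjusted p = 0.027). The call ended without shNC replicate 1 (log2 change -0.25, adjusted p = 0.082), shNC replicate 2 (-0.24, 0.093) or shIFI16 replicate 2 (-0.22, 0.14).

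**Figure D2:**
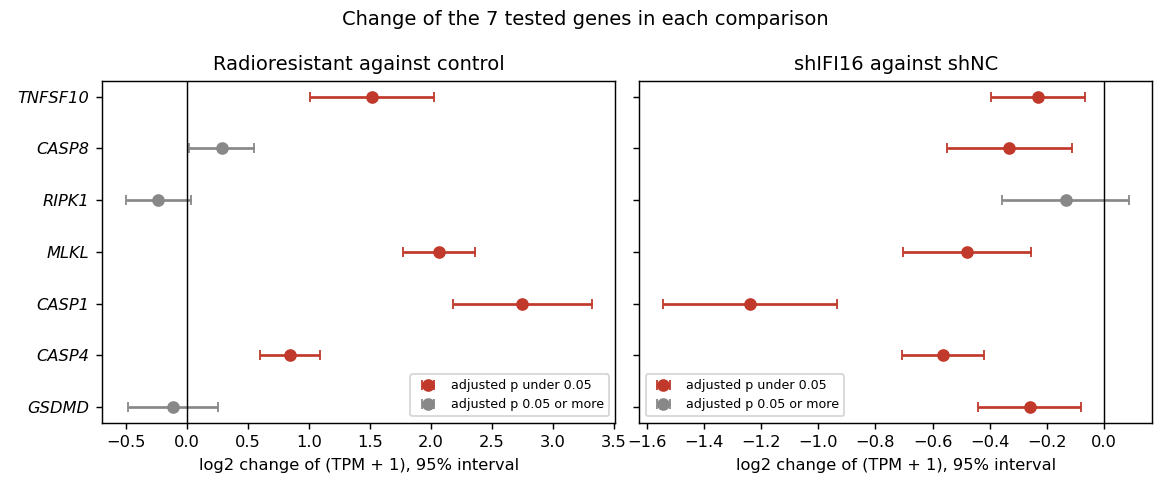
Log2 change of log2(TPM + 1) for the 7 tested genes with 95% intervals from limma, radioresistant against control and shIFI16 against shNC, each within its own table; red is an adjusted p under 0.05 and grey is not. The intervals of CASP1, MLKL, CASP4 and TNFSF10 lie above 0 in the first comparison and below 0 in the second.

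No values overlapped between groups for 5 of the 7 genes in radioresistant cells, where this held for 53.1% of all tested genes, and for 6 of the 7 after knockdown, where it held for 44.8%. The order of levels differed between the groups of the first table. In control cells GSDMD and RIPK1 were the highest and overlapped, then came CASP4, then TNFSF10 and CASP8, which overlapped, then MLKL, CASP1 and RIPK3, which did not. In radioresistant cells TNFSF10 and CASP4 were the highest and overlapped, followed by GSDMD and RIPK1, which overlapped, MLKL, then CASP8 and CASP1, which overlapped, and RIPK3. In both hairpin groups the order was CASP4, TNFSF10, GSDMD, RIPK1, CASP8, MLKL, CASP1, RIPK3, with no overlap between neighbours.

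The partners of TRAIL and caspase-8 were read from lists of pathway genes. Over all tested genes 16.9% rose and 27.0% fell in radioresistant cells, and 16.6% rose and 16.3% fell after knockdown. Of 16 death ligands and receptors 7 were under 1 TPM in all 12 libraries: the TRAIL receptor gene TNFRSF10A, listed at 0 throughout, the decoy receptor genes TNFRSF10C and TNFRSF10D, and FASLG, TNF, TNFRSF1B and LTA. TNFRSF10B, the other TRAIL death receptor gene, was at 82.9 ± 2.60 TPM in control and 73.9 ± 3.89 in radioresistant cells (SD, n = 3; log2 change -0.16, limma adjusted p = 0.22). It was at 99.9 ± 8.73 TPM in shNC and 82.8 ± 7.06 in shIFI16 cells (log2 change -0.27, limma adjusted p = 0.017), a call that ended without shNC replicate 1, without shIFI16 replicate 2, with no filter on low genes and without trend and robust variance (adjusted p up to 0.086 over the 12 alternatives). Of the 9 tested genes of this list, 3 rose and 0 fell in radioresistant cells in limma (4 and 0 at unadjusted p under 0.05; median log2 change 0.32), against -0.11 over all genes. They were FAS, the receptor of Fas ligand (0.81, adjusted p = 0.0022), TNFRSF21, the gene of death receptor 6 (0.60, adjusted p = 0.0030), and LTBR, the lymphotoxin receptor gene, at 0.34 (adjusted p = 0.048), whose call ended in 8 of 12 alternatives (adjusted p up to 0.19). After knockdown 0 rose and 5 fell (0 and 5 at unadjusted p under 0.05; median -0.27): TNFRSF25 (-0.71), FAS (-0.57), the TWEAK gene TNFSF12 (-0.56), its receptor gene TNFRSF12A (-0.38) and TNFRSF10B.

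Of 18 genes of the receptor complex and its regulators, all tested, the median log2 change in radioresistant cells was 0.16. Of these, 6 rose and 2 fell, beside 16.9% and 27.0% of all tested genes. Without control replicate 3 the falls numbered 4, and the rises ranged from 4 to 7 with single libraries left out. RBCK1, a subunit of the linear ubiquitin ligase, rose by 1.00, BIRC3, a ubiquitin ligase that restrains RIPK1, by 0.92 and IKBKG, the NEMO gene, by 0.55; IKBKB, the gene of a kinase that NEMO holds, fell by 1.16 (limma adjusted p = 3.7e-04, 0.0010, 0.0022 and 5.3e-05). IKBKG has a near-identical pseudogene copy, so its level is uncertain. FADD, the adaptor of caspase-8, had a log2 change of 0.08 (adjusted p = 0.60), and CFLAR, the caspase-8 inhibitor c-FLIP, of -0.36 (adjusted p = 0.058), called without control replicate 3. After knockdown 2 rose and 6 fell (median -0.11); 0 rose without shNC replicate 3 and 1 without shNC replicate 2, shIFI16 replicate 1 or shIFI16 replicate 2. TNFAIP3, the gene of A20, which takes ubiquitin off RIPK1, went from 10.1 ± 0.0362 to 3.31 ± 0.308 TPM (SD, n = 3; log2 change -1.36, limma adjusted p = 1.7e-07). BIRC3 fell by 0.87, the A20 partner gene TNIP1 by 0.42 and IKBKG by 0.29. FADD (-0.17, adjusted p = 0.094) and CFLAR (-0.02) did not pass the test, though FADD did with quantile normalization and with median-ratio scaling.

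Among 12 inducers and modifiers of necroptosis, 5 of 11 tested rose and 1 fell in radioresistant cells, beside 16.9% and 27.0% of all genes. The list's median log2 change was 0.26. The count of rises was 3 without control replicate 2, without any single radioresistant library, with no filter on low genes and without trend and robust variance; the calls of TICAM1 and RIPK2 ended in 10 and 7 of the 12 alternatives. TLR3, a receptor for double-stranded RNA that can feed into RIPK3, rose by 1.36, ADAR, which edits such RNA, by 1.12 and the mitochondrial phosphatase gene PGAM5 by 0.52 (limma adjusted p = 4.0e-04, 4.2e-05 and 0.0070). After knockdown 1 rose, PGAM5, and 3 fell (median -0.17), and 0 rose without shNC replicate 2 or shIFI16 replicate 1. The calls of PGAM5 (0.28, limma adjusted p = 0.047) and of RIPK2, among the falls (-0.26, limma adjusted p = 0.038), each ended in 7 of the 12 alternatives. TLR3 fell by 0.97 and TICAM1, the TLR3 adaptor gene, by 0.55 (limma adjusted p = 0.0011 and 1.6e-04). ZBP1, the Z-nucleic acid sensor that binds RIPK3, was at most 0.328 TPM in any library.

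Of 11 further caspase and caspase-like genes 5, namely CASP5, CASP10, CASP14, CARD17 and CARD18, were under 1 TPM throughout. In radioresistant cells 2 of 6 tested rose and 2 fell, beside 16.9% and 27.0% of all tested genes. CARD16 rose as given above; CASP6, an executioner, fell by 0.63 and CASP9, the initiator of the mitochondrial route, by 0.61 (limma adjusted p = 0.0039 and 0.0074). After knockdown 0 rose and 1 fell, CARD16, in limma (0 and 1 at unadjusted p under 0.05). The median of this list was -0.04 in radioresistant cells, turning to 0.04 with quantile normalization and 0.08 with median-ratio scaling, and 0.01 after knockdown, turning to -0.01 with median-ratio scaling.

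Several sensors and the adaptor of caspase-1 were low, while other genes of its list were well expressed. Of 22 inflammasome and pyroptosis genes 9 stayed under 1 TPM in all libraries: NLRP3, NLRP6, NLRC4, MEFV, the adaptor gene PYCARD (at most 0.403 TPM), IL1A, IL1RN, GSDMA and GSDMC. AIM2, a cytosolic DNA sensor of the same family as IFI16, was at a mean of 0.0216 TPM in control and 1.28 in radioresistant libraries and was not tested. IL1B, a caspase-1 substrate, went from 0.1001 to 1.48 TPM (log2 change 1.16, limma adjusted p = 2.2e-04); it passed the filter only through the radioresistant group, which fixes its direction. IL18, another substrate, was at 110 ± 19.99 TPM in control and 87.6 ± 9.67 in radioresistant cells (SD, n = 3; adjusted p = 0.11). Of 12 tested genes of this list 2 rose and 1 fell in radioresistant cells (median 0.03), beside 16.9% and 27.0% of all genes. Of the 2 rises, IL1B had its direction fixed by the filter. Without radioresistant replicate 1 or 3 the rises and falls of the list numbered 0 and 0, and without radioresistant replicate 2 they numbered 1 and 1. IL1B failed the filter without any single radioresistant library, and it kept its call in all 9 alternatives where it was tested. Without control replicate 1 or 2 the list had 1 rise and 0 falls, and without control replicate 3 it had 2 and 3. After knockdown 2 of 11 rose and 4 fell (median -0.14), and 1 rose when any single library but shNC replicate 1 was left out; of the 2, GSDMB passed the filter only through the shIFI16 group. NLRP1, a sensor whose inflammasome can work in epithelial cells, went from 1.53 ± 0.0511 to 7.66 ± 1.21 TPM (SD, n = 3), a log2 change of 1.76 (limma adjusted p = 5.5e-08). GSDME, a gasdermin gene listed under its older symbol DFNA5, fell by 0.80, NEK7, which binds NLRP3, by 0.62 and NINJ1, which ruptures the membrane late in lytic death, by 0.41.

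In the list of 13 apoptosis execution genes 2 rose and 0 fell in radioresistant cells in limma, beside 16.9% and 27.0% of all genes. The list's counts were 2 and 1 at unadjusted p under 0.05. Past the adjusted threshold, 4 rose and 3 fell without control replicate 3. CYCS, the cytochrome c gene, rose by 0.97 and BID, the caspase-8 substrate that links death receptors to mitochondria, by 0.60 (limma adjusted p = 1.4e-04 and 0.0040). After knockdown 5 rose and 1 fell, with BID up by 0.46 (limma adjusted p = 3.9e-04). The rises numbered 2 without shNC replicate 3, shIFI16 replicate 1 or shIFI16 replicate 2 and 1 with no filter on low genes, and 0 fell without shNC replicate 1, shNC replicate 2, shIFI16 replicate 2 or shIFI16 replicate 3. BID was thus higher in both comparisons, whereas CASP8 was lower after knockdown. The list's median was -0.09 in radioresistant cells, 0.05 with quantile normalization and 0.01 with median-ratio scaling, and 0.07 after knockdown.

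**Figure D3:**
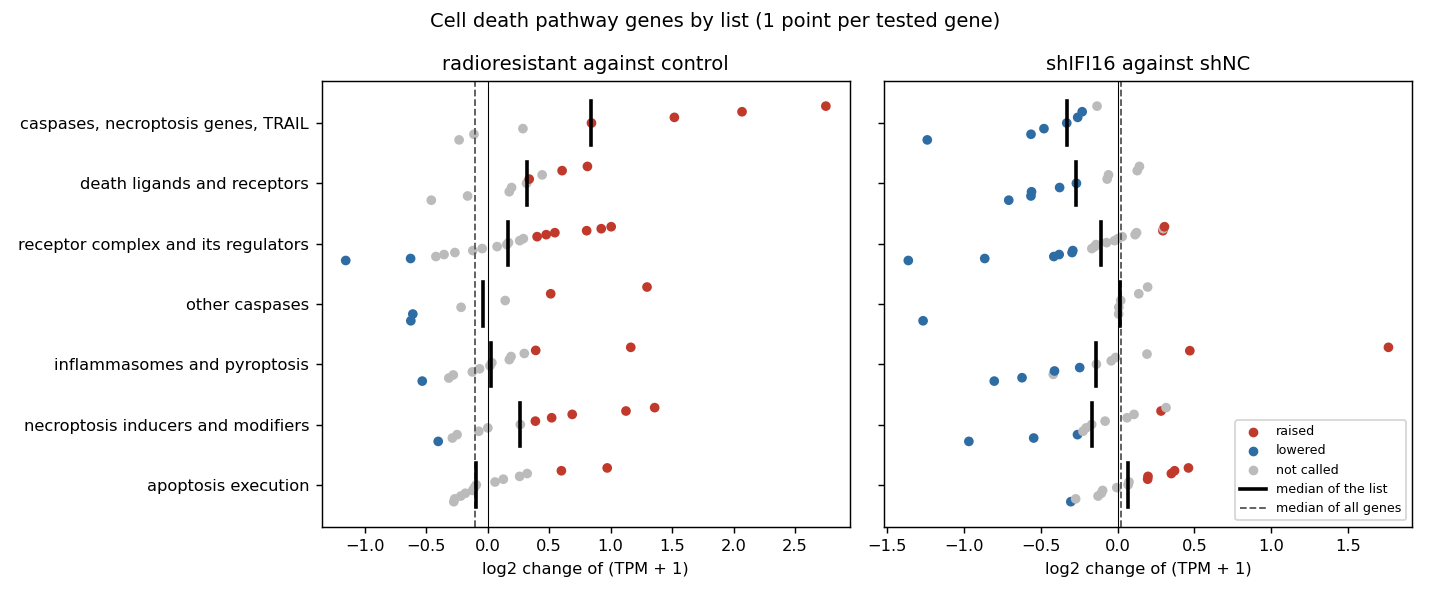
Log2 change of each tested gene of the 7 lists in both comparisons; points are genes, red where raised, blue where lowered and grey where not called, black bars are list medians and the dashed line is the median of all tested genes. The genes described here have medians of 0.84 and -0.33, and the apoptosis execution list of -0.09 and 0.07.

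**Figure D4:**
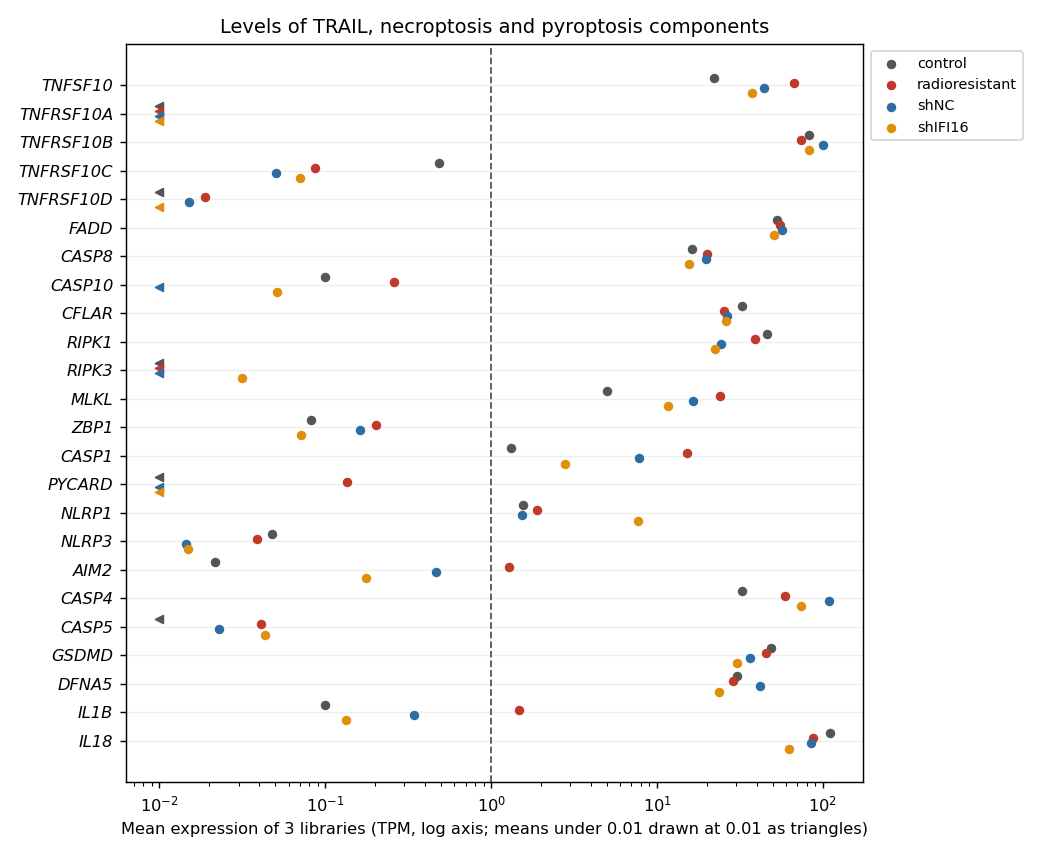
Mean TPM (log axis) of the components of the death receptor, necroptosis and inflammasome routes in the 4 RNA groups, each point the mean of 3 libraries, triangles means under 0.01 and the dashed line 1 TPM; hairpin groups come from a separately normalized table. TNFRSF10B, CASP8, FADD, MLKL, CASP4 and GSDMD are above 1 TPM in every group, and TNFRSF10A, RIPK3, ZBP1, NLRP3 and PYCARD are below it.

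The genes closest in pattern to each of the 7 over the 12 RNA libraries were found by the root-mean-square difference of log2(TPM + 1) deviations from each table's mean, among 12359 genes. PARP12 (0.118) and EPHB2 (0.137) were closest to MLKL, NAV1 (0.152) and SP100 (0.162) to TNFSF10, and ACSL5 (0.229) and STEAP1 (0.242) to CASP1. For CASP4 they were STPG1 (0.080) and ULBP2 (0.085), for CASP8 BTN2A1 (0.057) and ARF6 (0.060), for GSDMD ABCC10 and SIRT2 (0.084 each) and for RIPK1 CNOT4 and LEPROT (0.050 each). A small distance is easier to reach for a gene that varies little. PARP12 had log2 changes of 2.06 in radioresistant cells and -0.73 after knockdown, beside 2.07 and -0.48 for MLKL. PARP12 was picked for its nearness over these same libraries, so this likeness follows from the choice.

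ATAC-seq measures open chromatin by where the Tn5 transposase cuts; with 1 library per condition there was no test. The authors' lists held 2454 summits, points of highest signal, in the control and 12877 in the radioresistant library, a gap that can set every count below. Within 1 kb of the start sites of the 5 genes with a RefSeq promoter entry there were summits at 0 in the control and at 1, RIPK1, in the radioresistant library. Of the 9791 tested genes with an entry 6.43% had such a summit in the control and 35.7% in the radioresistant library. The RIPK1 summit lay 4 bases downstream of the start, with the authors' -log10 q of 7.47, and RIPK1 RNA was not called in either comparison. Only 1 start site per gene was used, and summits at any other start site of a gene were not looked for. In the radioresistant library the nearest summits to the other start sites used were 24519 bases away for CASP8, 45906 for TNFSF10, 78674 for CASP4 and 112374 for MLKL. The CASP8 summit lay downstream of the start used, inside the gene, which is 54249 bases long. The raised genes with an entry, TNFSF10, CASP4 and MLKL, thus had no listed summit within 1 kb of the start site used, in either library.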

How the data were processed

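The authors deposited 2 tables of TPM, 1 for control and radioresistant libraries and 1 for both hairpin groups, and 1 list of ATAC-seq summits per library. Each TPM column summed to 1000000 and values were not whole, though the labels name the tables as counts. The score of each deposited summit was taken as a -log10 q-value by the MACS2 layout. Tools named in the submitters' processing notes are featureCounts, Cufflinks 2.2.1, TopHat and Trim Galore 0.6.6 with build hg38, and for ATAC-seq also Bowtie2 2.2.5, SAMtools 1.10 and MACS2 2.1.4; which tool made the TPM, and whether strand was used, is not given in the sources used here.

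Column groups were read from their codes, and 28 rows with dates in place of gene names were dropped. Each table was fitted separately with limma 3.58.1 in R 4.3.3 (trend, robust) on log2(TPM + 1), a scale that shrinks changes of low genes. Tested genes reached 1 TPM in 3 or more of 6 libraries, and p-values were adjusted by Benjamini-Hochberg over all of them (threshold 0.05). The fit was tested on simulated data. Alternatives were a pseudocount of 0.1, no filter, quantile normalization, median-ratio scaling, no trend or robust variance, a replicate block and each library left out. Genes named were the 8, IFI16, up to 4 per list with the smallest p, partners at or near 0, and for each tested gene the 2 nearest in pattern; TNFRSF10B, FADD, CFLAR, IL18, AIM2 and CARD16 were added as partners. Some members of the lists are counted but not reported here by name. The 8 genes and the lists were chosen with earlier results of these data known. Promoter sequences and positions are RefSeq's (GRCh38.p14), with 1 promoter entry and start site kept per gene.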

Additional observations from a re-analysis of the deposited data

How the results depend on the processing

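In radioresistant against control cells TNFSF10, MLKL, CASP1 and CASP4 kept their direction and call in all 12 alternatives, and after knockdown MLKL, CASP1 and CASP4 did. CASP8 in radioresistant cells passed with quantile normalization (0.38) and median-ratio scaling (0.41). GSDMD there turned to 0.0105 with median-ratio scaling. With single libraries left out, the log2 change of GSDMD in radioresistant cells ranged from -0.28 to 0.0047 and of RIPK1 from -0.30 to -0.16, and 0 to 1 of the 7 genes fell. After knockdown 3 to 6 fell with single libraries left out, with log2 changes of -0.27 to -0.20 for TNFSF10, -0.43 to -0.26 for CASP8 and -0.31 to -0.22 for GSDMD; CASP8 with no filter on low genes was -0.33, past the threshold no longer. In the radioresistant library 668 summits had a score of at least 10. Of the 5 genes with a promoter entry, 0 had such a summit within 1 kb of the start site used. The share was 2.07% of the 9791 tested genes with an entry, so 0 of 5 says little. The cause of these changes was not tested.

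Same-numbered replicates did not deviate together in every pair (r of -0.38, 0.24 and 0.08, and 0.22, 0.09 and 0.03), and not every library correlated best with its own number. With the replicate number as a block, 4 genes rose and 0 fell in radioresistant cells and 6 fell after knockdown, and over all genes 5572 (main 5762) and 5610 (main 4140) were called. With the block CFLAR in radioresistant cells and FADD after knockdown were also called. TPM keeps no depth, so limits of detection for RIPK3, PYCARD and ZBP1 could not be given. With 3 libraries per group no test for a library far from the others was made.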
